A study of Homo sapiens with 4 samples.

Results

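The proteasome genes examined here were those of the core particle, its regulatory particle, its activators and its assembly chaperones. Members were all probe sets with exactly 1 platform gene symbol that starts with PSMA, PSMB, PSMC, PSMD, PSME, PSMF or PSMG and a number, without pseudogenes and antisense genes. Where a gene had several probe sets, the one with the highest mean over the 4 arrays stood for it. This gave 46 member genes of 22395 genes named on the array. PSMA6, PSMC5, PSMD7 and PSMD13 had no probe set that met this rule, and PSMA6 shared its probe set with other symbols. The 3 antisense genes PSMB8-AS1, PSMD6-AS2 and PSMG3-AS1 were left out. PSMC3IP, a meiotic recombination factor, and PSME3IP1, a binding partner of PSME3, met the rule by name but are neither subunits nor chaperones, so their values stand apart. The cells were Huh7, a human hepatocellular carcinoma line, transfected with the plasmid pcFLAG in the 2 control samples and with pcFLAG-hSTYK1, which carries human STYK1, in the 2 STYK1 samples. The labels give neither the share of cells that took up plasmid nor the time after transfection, and every array averages over all cells of its sample. Total RNA was measured on biotin-labelled whole-transcript arrays as log2 signals.

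The proteasome degrades proteins that carry ubiquitin chains. Its core is a barrel of outer alpha rings and inner beta rings, and 3 beta subunits, PSMB5, PSMB6 and PSMB7, cut the peptide bonds. A regulatory particle of base and lid docks on the barrel: the base unfolds substrates with a ring of ATPases, and the lid removes ubiquitin. Interferon induces the catalytic subunits PSMB8, PSMB9 and PSMB10, which replace the constitutive ones, and the activator subunits PSME1 and PSME2. When proteasome activity is short, the transcription factor NFE2L1 raises subunit genes together through antioxidant response elements in their promoters.

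Because interferon induces several members, promoters were searched for a core that interferon-activated factors are known to bind. RefSeq promoter sequences (GRCh38.p14, 250 bases before to 50 after a gene's start) were matched for 40 of the 46 members, some with several starts, giving 49 windows. The core of the interferon-stimulated response element, spelled as GAAA, then NN, then GAAA, and searched on both strands, was found for 7 members: PSMB8, PSMB10, PSME1, PSME2, PSMG4, PSMA4 and PSMB4. It occurred in 14.3% of the 49 member windows and in 3.57% of all 35116 promoter windows of this length. The element of PSMB10 (chr16:67936801-67937100, minus strand) began 21 bases before the start and that of PSMB8 (chr6:32843998-32844297, minus strand) 4 bases before it, in capitals here:
PSMB8: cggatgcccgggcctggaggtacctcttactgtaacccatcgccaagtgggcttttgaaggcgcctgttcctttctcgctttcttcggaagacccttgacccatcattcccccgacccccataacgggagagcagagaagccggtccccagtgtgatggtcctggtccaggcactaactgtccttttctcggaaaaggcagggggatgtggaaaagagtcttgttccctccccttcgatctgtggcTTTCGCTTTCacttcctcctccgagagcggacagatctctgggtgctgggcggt
PSMB10: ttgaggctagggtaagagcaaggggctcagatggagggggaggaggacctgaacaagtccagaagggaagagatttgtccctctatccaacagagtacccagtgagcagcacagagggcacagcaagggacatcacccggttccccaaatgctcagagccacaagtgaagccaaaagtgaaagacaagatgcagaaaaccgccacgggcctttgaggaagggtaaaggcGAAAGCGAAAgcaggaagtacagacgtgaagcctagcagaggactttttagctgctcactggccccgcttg
The same letters, GAAAGCGAAA or their reverse complement, stood in the promoters of PSME1 (chr14:24136184-24136223, plus strand), PSME2 (chr14:24146614-24146653, minus strand) and PSMG4 (chr6:3258899-3258938, plus strand), shown with 15 bases on each side:
PSME1: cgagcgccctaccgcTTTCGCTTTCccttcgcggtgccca
PSME2: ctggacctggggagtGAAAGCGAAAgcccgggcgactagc
PSMG4: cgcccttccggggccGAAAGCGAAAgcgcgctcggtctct
The promoter window of PSMB9 held no such core.

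The antioxidant response element core TGACNNNGC, searched on both strands, was found for 14 of the 40 members, in 28.6% of the member windows against 13.3% of all windows. It is shown, in capitals, for 3 members that lay on either side of 0 in the comparison: PSMA4 (chr15:78540645-78540683, plus strand), PSMB3 (chr17:38752622-38752660, plus strand) and PSME4 (chr2:53971004-53971042, minus strand, with the element on the opposite strand of the gene):
PSMA4: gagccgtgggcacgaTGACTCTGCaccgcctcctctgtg
PSMB3: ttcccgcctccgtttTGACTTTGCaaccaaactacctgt
PSME4: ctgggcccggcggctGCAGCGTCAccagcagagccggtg
The other members with this core were PSMB9, PSMC4, PSMD1, PSMD3, PSMD5, PSMD9, PSMD12, PSME1, PSME2, PSMG1 and PSMG2. A match is a description of these letters and not a measured binding site.

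STYK1, the transfected gene, checks the labels: it read 0.26 and 0.61 on the control arrays, against 7.40 and 7.86 with STYK1 (difference 7.19, SE 0.20, limma, adjusted p = 0.0373). Both control values lay under the floor used for background, against which STYK1 was at least 118-fold higher. Its call did not outlast the removal of any 1 array, with adjusted p-values of 0.347 to 0.724, while the difference stayed between 6.96 and 7.42. The 4 arrays had medians of 0.615 to 0.629. For background, a floor was set on each array at the 95th percentile of the 423 probe sets for olfactory receptors, which gave 0.725 to 0.774. Of the hepatocyte and liver cancer markers 7 of 8 were measured and all 7 lay above the floor, among them ALB at 10.42 to 10.60. Of 4 fibroblast markers 1 lay above it and of 2 measured endothelial markers 0 did. The labels do not say whether the samples of a group are separate cultures. The p-values therefore reflect the spread among these 4 samples alone, possibly a technical one, and the number of arrays limits the precision.

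No proteasome gene differed between STYK1 and control arrays beyond the test's threshold, and the differences were small in either direction. Of the 46 members, 0 passed at an adjusted p under 0.05 (limma), where 0.00187% of all 53617 probe sets did, which is STYK1 alone. At an unadjusted p under 0.05, 0 members were found, against 4.64% of all probe sets (2.73% higher and 1.91% lower) and 5.45% of the genes above the floor. In simulated arrays of this design the same test recovered 12 of 50 planted changes of 1 log2 unit and 27 of 50 of 2 units. The changes were planted in probe sets of the whole array with a mean signal above 2. Some members, such as PSMB8 and PSMD4, lie under that signal, so these rates are not rates for the members. The count of 0 does not show that members were unaltered. Without variance moderation 1 member, PSMA3, had an unadjusted p under 0.05, against 5.09% of all genes. In bulk samples such as these, fewer cells that express a gene and less of its RNA per cell cannot be told apart.

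The members were split evenly by direction, 24 higher and 22 lower in the STYK1 arrays, or 52.2% higher against 51.9% of all probe sets and 51.7% of the genes above the floor. With arrays centred on the probe sets above the floor the split was 17 higher and 29 lower, and that of all genes shifted likewise, to 36.7% higher. With quantile normalization it was 19 and 27. The median difference was 0.0064, beside 0.0022 over all genes. Differences ran from −0.24 for PSMB7 to 0.21 for PSMD6. The groups did not overlap for 8 higher members (17.4%, against 17.4% of all probe sets) and for 6 lower members (13%, against 15.4%). Over all genes, 1 probe set each, 16.7% were apart and higher and 16.2% apart and lower, so the members lay near these shares.

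The spread of these genes was narrow enough to bound a change in signal for most of them. The 95% interval of the difference lay within a 1.5-fold change either way for 43 of the 46 members, the exceptions being PSMB10, PSMB11 and PSMG3. Among the 43 members above the floor it did so for 41, or 95.3%, against 79.7% of all genes above the floor. The median signal of these members was 5.76, against 2.05 for those genes, and the shares were not matched for signal. In the chaperonin CCT, another complex of many subunits with a median signal of 6.98, all 7 measured genes had intervals within 1.5-fold. All 46 member intervals lay within a 2-fold change. For members under or near the floor, a narrow interval bounds the signal and not the RNA. The median size of a difference was 0.070 over the members and 0.099 over the genes above the floor, and the median range over the 4 arrays was 0.21 and 0.29 in the same order. A probe set's signal depends on its own probes, so RNA levels are compared between arrays and not between genes.

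**Figure D1:**
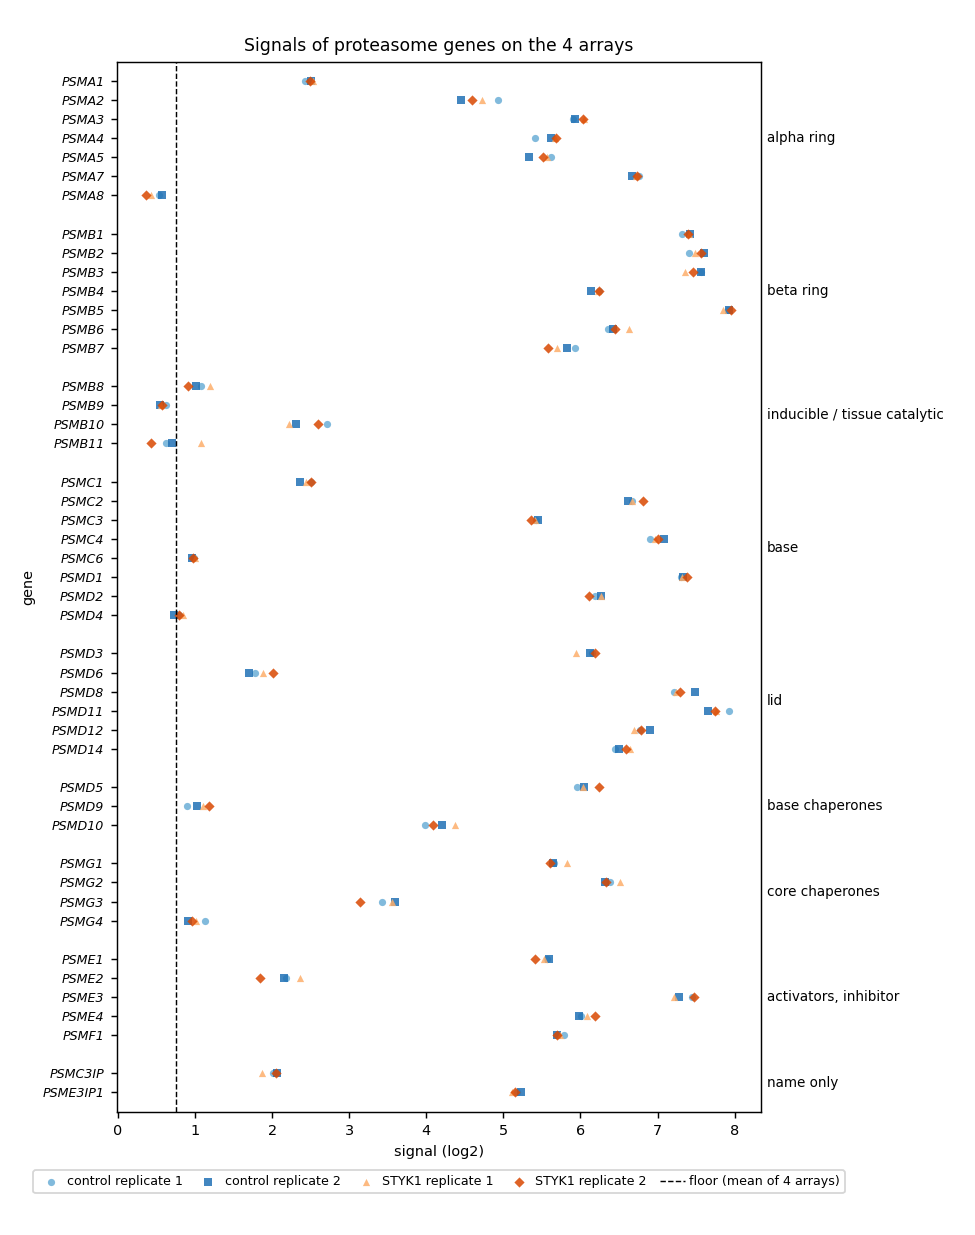
Signals (log2, horizontal axis) of the 46 proteasome genes on each of the 4 arrays, with genes grouped by role and the dashed line at the mean floor of 0.75. The 4 points of most genes lie close together, and PSMA8, PSMB9 and PSMB11 have means under the floor.

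In the alpha ring, which gates entry to the core, differences were small. Of 7 measured members 5 were higher and 2 lower, with a median difference of 0.051, and 0 passed the test. PSMA4 read 5.41 and 5.61 on the control arrays, against 5.66 and 5.68 with STYK1 (difference 0.16, SE 0.11), and without control replicate 1 its difference was 0.061. All 4 of its values lay within 0.27 log2 units. PSMA3 read 5.91 and 5.92 against 6.04 and 6.03 (difference 0.12, SE 0.083), so its groups were apart while each pair of replicates nearly coincided. PSMA3 was the member with the lowest p without variance moderation (limma, adjusted p = 0.815), where its own small spread enters alone.

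PSMA2 was the most variable of the ring, at 4.93 and 4.45 on the control arrays, against 4.73 and 4.59 with STYK1. Both STYK1 values lay between the controls (difference −0.031, interval −0.51 to 0.45). PSMA1, PSMA5 and PSMA7 differed by 0.016 to 0.063, and their groups overlapped. PSMA8, a form of the testis, lay under the floor on all 4 arrays, at 0.54 and 0.58 on the control arrays, against 0.43 and 0.37 with STYK1. Its difference of −0.16 therefore lies within background signal.

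The beta ring held the member with the lowest p, the trypsin-like subunit PSMB7. It read 5.93 and 5.83 on the control arrays, against 5.70 and 5.57 with STYK1, a difference of −0.24 with an SE of 0.098, or 0.844 of the control level. Both STYK1 values were lower than both controls, yet it did not pass (limma, adjusted p = 0.979). The caspase-like subunit PSMB6 lay on the other side, at 6.35 and 6.42 against 6.63 and 6.45 (difference 0.15, SE 0.10), and without STYK1 replicate 1 its difference was 0.064. The chymotrypsin-like subunit PSMB5, the target of bortezomib, read 7.91 and 7.93 on the control arrays, against 7.84 and 7.96 with STYK1. Its groups overlapped, and the interval of its difference ran from −0.26 to 0.22. The 3 constitutive catalytic subunits thus showed no common direction.

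Among the non-catalytic beta subunits, PSMB3 read 7.56 on both control arrays and 7.35 and 7.46 on the STYK1 arrays (difference −0.15, SE 0.091). It was lower in both STYK1 arrays. PSMB4 read 6.24 and 6.14 against 6.22 and 6.24 (difference 0.046, SE 0.090), with overlapping groups. PSMB1 and PSMB2 differed by 0.041 and 0.018. Over the 7 beta ring members the median difference was 0.018 and the mean −0.022, with 4 higher and 3 lower.

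The inducible catalytic subunits, which equip the proteasome for antigen presentation, showed no difference past the test. PSMB9 and PSMB8 lay under or just above the floor in both groups, while PSMB10 lay well above it. PSMB9 lay under the floor on all 4 arrays, at 0.62 and 0.54 on the control arrays, against 0.56 and 0.57 with STYK1. PSMB8 lay just above the floor, at 1.08 and 1.02 on the control arrays, against 1.19 and 0.90 with STYK1 (difference 0.0016, interval −0.33 to 0.34). The sign of so small a difference turned with the scaling of the arrays. PSMB10 gave 2.71 and 2.31 against 2.21 and 2.60 (difference −0.11, SE 0.20). Its replicates differed by more than its groups. PSMB11, the form of the thymus, read 0.62 and 0.70 on the control arrays, against 1.08 and 0.43 with STYK1, so 1 array alone stood above the floor. Without STYK1 replicate 2 the difference of PSMB11 was 0.42 (adjusted p = 0.957), and without STYK1 replicate 1 it was −0.23.

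PSMB8 had 8 probe sets on the array and PSMB9 had 4. For PSMB8, 7 of the 8 held identical values on every array, with a difference of −0.026, so they count as 1 measurement. The remaining one had the highest mean and stands for the gene. Of the 4 probe sets of PSMB9, 2 were identical, and all 4 lay under the floor in their means.

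Genes of antigen processing and its interferon control also gave 0 calls. Of 21 listed genes the array measured 19, with 16 over the floor, and 11 were higher and 8 lower, with a median difference of 0.018 and 0 past the test at an adjusted or an unadjusted p under 0.05 (limma). IRF1, the interferon-induced factor that acts on the inducible subunits, read 1.17 and 1.05 on the control arrays, against 1.24 and 0.97 with STYK1. Its groups overlapped. TAP1, a subunit of the peptide transporter whose promoter window overlaps that of PSMB9, lay under the floor on all 4 arrays at 0.53 to 0.60. The other transporter subunit, TAP2, had the largest lower difference of the list, at 1.35 and 1.39 against 1.17 and 1.24 (difference −0.17, SE 0.087). ERAP1, the peptidase that trims peptides in the endoplasmic reticulum, had the largest higher one above the floor, at 1.98 and 2.02 against 2.24 and 2.13 (difference 0.19, SE 0.092).

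Immune cells hold the inducible subunits constitutively. Among immune markers 9 of 10 were measured and 5 exceeded the floor, LYZ and CD14 among them. CSF1R, CD74 and NKG7 did so narrowly, with means of 0.776, 0.847 and 0.919, each above it on 3 of 4 arrays. CD3E, CD3D and MS4A1 lay under it on all 4 arrays. LYZ read 7.94 and 7.92 on the control arrays, against 8.05 and 7.91 with STYK1, and CD14 read 1.98 to 2.23. The mean signal over the 9 was 1.62 on both control arrays and 1.63 on both STYK1 arrays. Their median signal was 0.776, so that mean rests much on LYZ. The pan-leukocyte marker PTPRC read 0.36 to 0.46, under the floor on every array. It was slightly higher on both STYK1 arrays, within background signal.

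**Figure D2:**
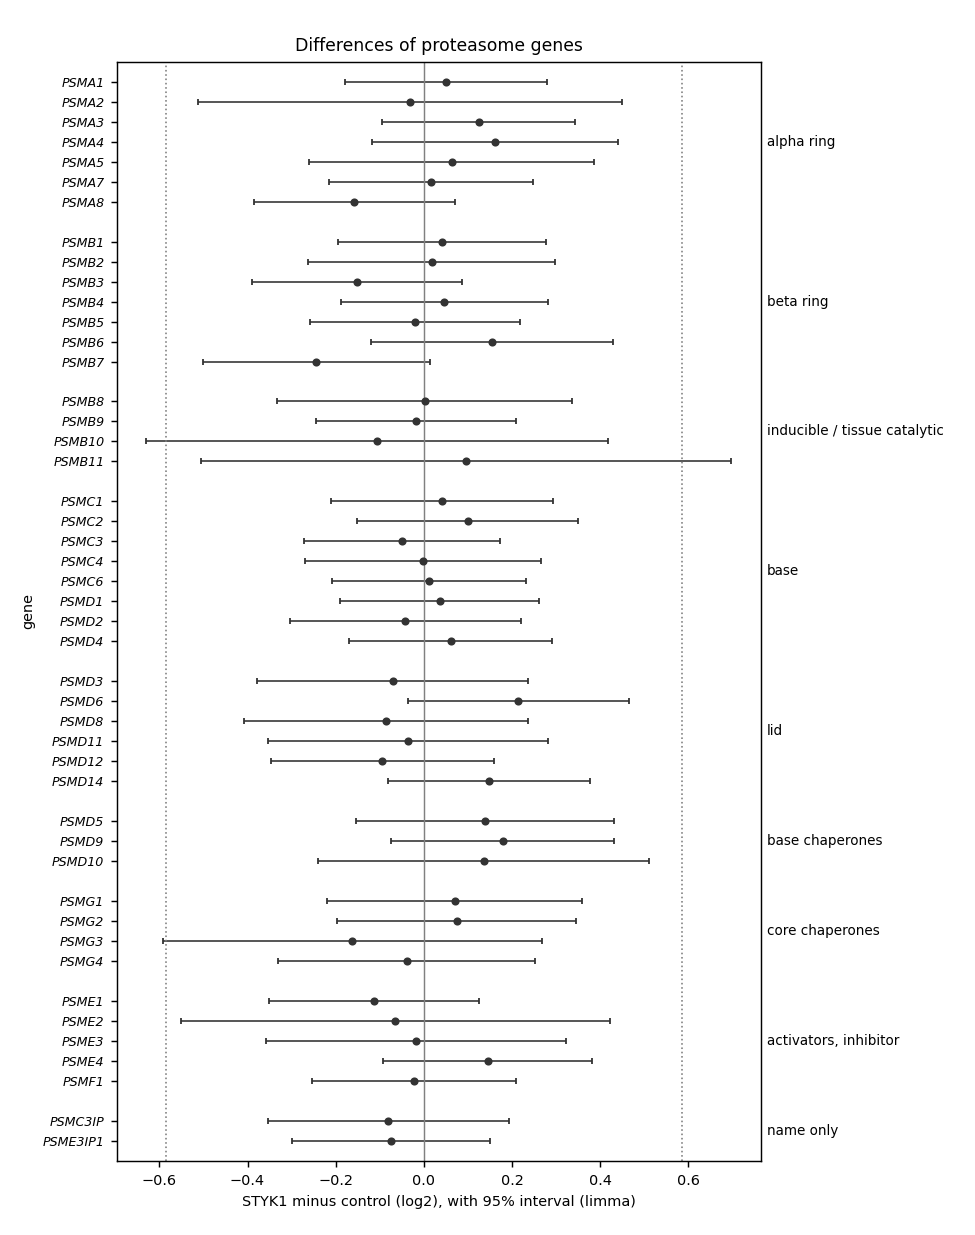
Difference between STYK1 and control arrays (log2, horizontal axis) of each proteasome gene, with points at the limma estimate, bars for the 95% interval and dotted lines at a 1.5-fold change. Every interval includes 0, and those of PSMB10, PSMB11 and PSMG3 reach past a dotted line.

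The base, whose ATPases PSMC1 to PSMC6 pull substrates into the core, had the smallest median size of a difference of all role groups, 0.042. Of 8 measured members 5 were higher and 3 lower, all between −0.050 and 0.099, with a median of 0.024. The ATPase PSMC2 read 6.67 and 6.61 on the control arrays, against 6.67 and 6.81 with STYK1 (difference 0.099, SE 0.096). Its higher control and its lower STYK1 value round to the same number. The ATPase PSMC3 read 5.43 and 5.45 against 5.41 and 5.36 (difference −0.050, SE 0.085). The scaffold subunit PSMD2 read 6.19 and 6.26 against 6.26 and 6.11 (difference −0.042, SE 0.10), with overlap. The other scaffold subunit, PSMD1, and the ATPases PSMC1, PSMC4 and PSMC6 differed by −0.0025 to 0.042, each with overlapping groups.

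The ubiquitin receptor PSMD4 read 0.80 and 0.73 on the control arrays, against 0.85 and 0.80 with STYK1, above the floor on 3 of 4 arrays by a narrow margin (difference 0.061, SE 0.088). PSMC6 likewise read only 0.96 to 0.99. Both are subunits of the regulatory particle, and with signals so near background little of a change in them could be seen.

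The lid was lower for 4 of its 6 measured members, with a median difference of −0.053 and a mean of 0.012. The median was 0.0066 without STYK1 replicate 1, 0.020 without control replicate 1 and 0.0092 without control replicate 2, so its direction rests on single arrays. PSMD6, a scaffold subunit, had the largest higher difference of all members, reading 1.77 and 1.69 on the control arrays, against 1.89 and 2.01 with STYK1 (difference 0.21, SE 0.096, limma, adjusted p = 0.979). Both STYK1 values were above both controls. PSMD14, the deubiquitinase of the lid, read 6.44 and 6.50 against 6.65 and 6.58 (difference 0.15, SE 0.088). It too was higher on both STYK1 arrays. PSMD12 read 6.77 and 6.90 against 6.70 and 6.78 (difference −0.094, SE 0.096). PSMD8 read 7.21 and 7.48 against 7.24 and 7.29 (difference −0.086, SE 0.12), with both STYK1 values between the controls. PSMD3 and PSMD11 differed by −0.071 and −0.036, with overlap in each.

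The 3 base assembly chaperones with a PSM name were all higher in the STYK1 arrays, with a median difference of 0.14, and 0 passed. PSMD9 read 0.90 and 1.02 on the control arrays, against 1.10 and 1.18 with STYK1 (difference 0.18, SE 0.096), all close to the floor. PSMD5 read 5.95 and 6.04 against 6.03 and 6.24 (difference 0.14, SE 0.11). PSMD10, also known as the oncoprotein gankyrin of liver cancer, read 3.98 and 4.21 against 4.37 and 4.09 (difference 0.14, SE 0.14). The groups overlapped for PSMD5 and PSMD10, and without STYK1 replicate 2 the difference of PSMD5 was 0.035. PAAF1, a base assembly chaperone outside the naming rule, was not higher, at 1.98 and 2.16 against 2.05 and 2.04 (difference −0.028, SE 0.10). Control replicate 1 was the lowest array for all 3 genes, at a mean deviation of −0.15 from each gene's mean, against −0.00053 in control replicate 2 and 0.074 and 0.077 in the STYK1 arrays. The median was 0.091 without control replicate 1, 0.24 without control replicate 2 and 0.22 without STYK1 replicate 1.

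The chaperones of the core, PSMG1 to PSMG4, were split, with 2 higher, 2 lower and a median of 0.016. Their mean difference was −0.014, and the median ran from −0.054 without STYK1 replicate 1 to 0.10 without STYK1 replicate 2, so these genes as a group have no settled direction. PSMG1 and PSMG2 form one pair that seeds the alpha ring: PSMG1 read 5.65 and 5.64 against 5.83 and 5.60 (difference 0.070, SE 0.11). PSMG2 read 6.39 and 6.31 against 6.51 and 6.34 (difference 0.075, SE 0.10). In both genes STYK1 replicate 1 was the highest array and the groups overlapped. Their partner pair lay lower: PSMG3 read 3.43 and 3.59 against 3.55 and 3.15 (difference −0.16, SE 0.16), and PSMG4 read 1.13 and 0.91 against 1.01 and 0.96 (difference −0.039, SE 0.11). PSMG3 was lowest in STYK1 replicate 2, and its difference was 0.039 without that array.

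Of the activators and the inhibitor, 1 of 5 was higher and 4 lower, with a median of −0.023. PSME4, the large activator PA200 that caps the core without ATP, read 6.0 and 5.98 on the control arrays, against 6.08 and 6.19 with STYK1 (difference 0.14, SE 0.090). PSME1, a subunit of the interferon-inducible activator, read 5.56 and 5.59 against 5.52 and 5.41 (difference −0.11, SE 0.091). For both genes the groups were apart. PSME2, the partner of PSME1 in the same ring, read 2.18 and 2.15 against 2.36 and 1.85 (difference −0.065, SE 0.19), so the STYK1 arrays lay on both sides of the controls. The nuclear activator PSME3 and the inhibitor PSMF1 differed by −0.018 and −0.023, with overlap.

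The 2 genes that share the name alone were both lower by little. PSMC3IP read 2.00 and 2.07 against 1.86 and 2.05 (difference −0.081, SE 0.10), and PSME3IP1 read 5.18 and 5.23 against 5.11 and 5.15 (difference −0.075, SE 0.086). Without them the remaining 44 members had 24 higher and 20 lower.

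**Figure D3:**
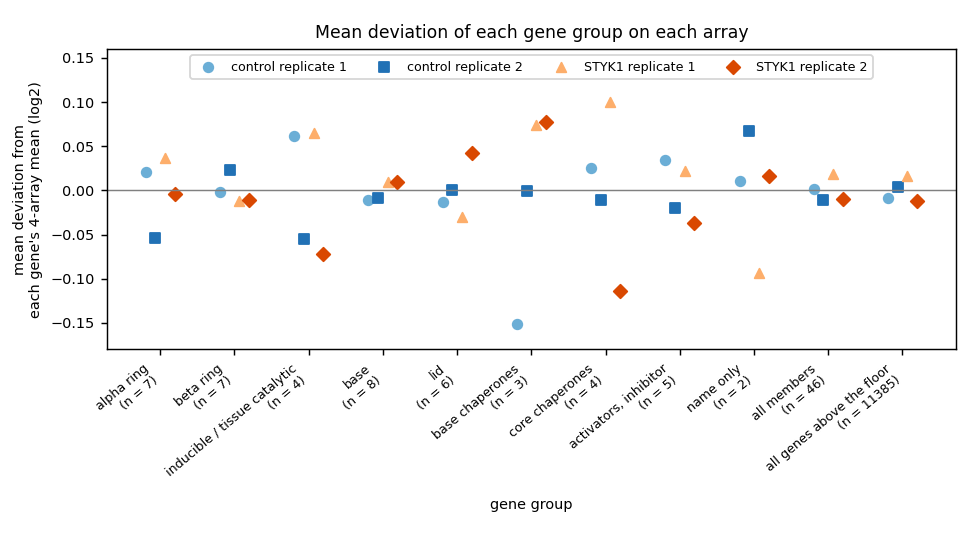
Mean deviation (log2, vertical axis) of each role group on each array from every gene's mean over the 4 arrays, with all members and all genes above the floor at the right. All members together stay between −0.011 and 0.019, and the widest deviations are those of the groups of 4 genes or fewer.

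Array by array, the members as a whole deviated by 0.0014 and −0.011 in the controls and by 0.019 and −0.0095 in STYK1 replicates 1 and 2, so the groups overlapped. The genes above the floor deviated by −0.0081, 0.0039, 0.017 and −0.012 in the same order. The highest array was STYK1 replicate 1 for 13 members and each other array for 11. The groups did not overlap in the mean of the base, at −0.010 and −0.0091 for the controls, against 0.0098 and 0.0097 for STYK1, nor in that of the base chaperones, both higher with STYK1. They did not overlap in the mean of the beta ring either, which was lower, at −0.0014 and 0.024 for the controls and −0.012 and −0.011 for STYK1. Such separation was common among single probe sets, of which 17.4% lay apart and higher and 15.4% apart and lower. That of the role group means was not tested. Over the proteasome genes as a set, no array deviated by more than 0.019.

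Partners of the proteasome outside the naming rule also had 0 genes past the test. Of 24 listed genes 22 were measured, all above the floor, with 15 higher, 7 lower, a median difference of 0.052 and 0 at an unadjusted p under 0.05 (limma). NFE2L1, the factor that induces subunit genes, read 5.71 and 5.80 on the control arrays, against 6.21 and 5.77 with STYK1 (difference 0.24, SE 0.17). STYK1 replicate 1 was high and the other 3 arrays were close together, and without that array the difference was 0.018. NFE2L2, its stress-responsive relative, had the largest higher difference, at 4.37 and 4.81 against 4.96 and 4.82 (difference 0.30, SE 0.17). Control replicate 1 was low in it, and without that array the difference was 0.084. UBQLN2, a shuttle that brings ubiquitinated proteins to the proteasome, had the largest lower difference, at 4.02 and 4.40 against 3.79 and 4.03 (difference −0.30, SE 0.17). POMP, the chaperone that completes the core, read 6.89 and 6.88 against 6.62 and 7.04 (difference −0.053, SE 0.16), with the STYK1 arrays on both sides of the controls.

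Of 6 listed genes of ubiquitin and its activating enzymes 3 were measured, with 2 higher and 1 lower and 0 past the test. The polyubiquitin gene UBB read 2.34 and 2.06 on the control arrays, against 2.44 and 2.41 with STYK1 (difference 0.23, SE 0.12), and without control replicate 2 the difference was 0.088. UBA1, the main ubiquitin-activating enzyme, read 6.99 and 6.94 against 6.91 and 6.81 (difference −0.10, SE 0.091). For UBB, UBA1 and UBA6 alike the groups did not overlap. Of all probe sets 17.4% were likewise apart and higher, and 15.4% apart and lower. UBA6, the second activating enzyme, differed by 0.21 with an SE of 0.088 (limma, adjusted p = 0.979).

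Members with an antioxidant response element core were 7 higher and 7 lower, with a median difference of 0.017. The 26 members whose window lacked it were 13 higher and 13 lower, with a median of −0.0083. For the interferon-stimulated core the 7 members with it had a median of −0.039, and ran from −0.11 to 0.16. The 33 without it had a median of 0.011. The interferon-gamma-activated core TTCNNNGAA was found for 8 members and CCAAT for 20, in 7.66% and 34.6% of all windows. Of those 8 members 1 was higher and 7 lower, with differences of −0.16 to 0.0016 and a median of −0.026. The lowest of these was PSMA8, which lay under the floor. The 32 members without this core had 19 higher and a median of 0.039, and the difference between the 2 sets was not tested. The core stood in 16.3% of the member windows, and CCAAT in 44.9% of them. With CCAAT 10 members were higher and 10 lower.

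Other complexes of many subunits served for comparison, without a test of the difference. Of 46 measured cytosolic ribosomal protein genes 25 were higher and 21 lower, with a median of 0.014 and differences from −0.20 to 0.51. At an unadjusted p under 0.05 (limma) there were 3 (6.52%), against 0 of the 46 proteasome members. The share was 3.72% of all genes and 5.45% of those above the floor. Median signals were 2.53 for the ribosomal genes and 5.70 for the members, and the sets were not matched for signal. Of 7 measured genes of the chaperonin CCT, which folds actin and tubulin, 3 were higher and 4 lower, with a median of −0.024 and differences from −0.16 to 0.12.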

How the data were processed

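The authors deposited 1 table of processed log2 values, 1 column per array. Per the submitters' processing notes the software was the Transcriptome Analysis Console. The sources used here give no version, summarization method or genome build. The log base was inferred: as natural logarithms the largest values would exceed the 65535 of a 16-bit scanner. Values were used as deposited, with no further normalization. They carry no detection calls or scan dates.

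Groups came from the sample titles. They were compared with limma 3.58.1 (R 4.3.3), lmFit and eBayes without trend, as a two-sided test. Benjamini-Hochberg adjustment ran over the 53617 probe sets, with 0.05 as threshold. Intervals are 95% limits on 4.71 degrees of freedom. For a self-test, data were simulated for the 53617 probe sets, each with its own residual spread. Known changes were planted only where the mean signal exceeded 2. The test recovered 24.0% of changes of 1 log2 unit, 54.0% of 2, 72.0% of 3 and 84.0% of 5, with 0 false calls. Symbols came from the platform annotation, updated through Entrez ID to RefSeq. Promoter motifs, the floor and the role groups, like the members and lists, were chosen with earlier results of these data known. Values per array are given for the catalytic subunits and their inducible counterparts, for members under the floor and for the 2 largest differences each way per role group. From the other lists, the fixed genes NFE2L1, POMP, UBB and IRF1 and the largest difference each way are named. PSMA1, PSMB1, PSMB2 and others are given by their difference alone. UBA6, TAP1 and PAAF1 were added after their values were seen.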

Additional observations from a re-analysis of the deposited data

How the results depend on the processing

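All alternatives were planned. No member passed the adjusted threshold in any of the alternatives run, and of 489 values for 41 named genes 0 came to pass (lowest adjusted p = 0.815). The following counts at an unadjusted p under 0.05 are from alternatives that kept all 4 arrays. PSMB7 was the 1 member with arrays centred on probe sets above the floor, against 4.15% of all genes. With quantile normalization it was again the 1 member, against 3.98%, and without variance moderation PSMA3 was, against 5.09%. With the replicate number as a replicate block the members gave 0 calls and 24 higher, and STYK1 differed by 7.19 with an adjusted p of 0.0637. Deviations of same-numbered arrays correlated at −0.044, the labels tie the numbers to no shared culture, and the block moved no other call. Without 1 array at a time STYK1 differed by 6.96 to 7.42 and was not called, with 1 residual degree of freedom and the lone array assumed to vary like the other group.

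The median difference of the members was −0.037 with centred arrays, −0.016 with quantile normalization, −0.010 with the mean of a gene's probe sets, and −0.011 to 0.027 without 1 array. With centred arrays the medians were −0.025 for the beta ring, −0.019 for the base, −0.096 for the lid and −0.066 for activators and inhibitor. With quantile normalization that of the base was −0.0075, and with mean probe sets that of the beta ring was −0.021. The averaging took in a second probe set of PSMB2, with a mean signal of 0.59, under the floor, and a difference of −0.17. The core chaperones had −0.027 with centred arrays and −0.0061 with quantile normalization. Centring shifts every gene by the same amount, and the other causes were not tested. Without 1 array the medians ran from −0.031 to 0.072 for the alpha ring, −0.027 to 0.036 for the beta ring, 0.013 to 0.024 for the base, −0.069 to 0.020 for the lid, 0.091 to 0.24 for the base chaperones, −0.054 to 0.10 for the core chaperones, −0.077 to 0.062 for the inducible subunits, −0.13 to −0.023 for the genes related by name alone and −0.079 to 0.021 for activators and inhibitor.

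PSMB8 turned to −0.041 with centred arrays, −0.027 with quantile normalization and −0.022 with mean probe sets. In that last setting all 8 PSMB8 probe sets entered the mean, with the 7 identical ones each counted. Without 1 array at a time these named genes changed sign at least once: PSMB8 ran from −0.14 to 0.15, PSMB5 from −0.077 to 0.036, PSMB9 from −0.054 to 0.020, PSMB10 from −0.31 to 0.096, PSMA2 from −0.27 to 0.21, PSMB4 from −0.0040 to 0.096, PSMD2 from −0.12 to 0.036, PSMD8 from −0.22 to 0.051, PSMG2 from −0.013 to 0.16, PSMG1 from −0.041 to 0.18, PSMG3 from −0.36 to 0.039, PSMG4 from −0.15 to 0.070, PSME2 from −0.32 to 0.19, PSMC3IP from −0.17 to 0.010, PSMB11 from −0.23 to 0.42, POMP from −0.26 to 0.15 and IRF1 from −0.14 to 0.13. Other named genes kept their sign but moved: PSMA4 from 0.061 to 0.26, PSMB6 from 0.064 to 0.25, PSMD5 from 0.035 to 0.24, UBB from 0.088 to 0.37, NFE2L1 from 0.018 to 0.45 and NFE2L2 from 0.084 to 0.52, among others. Signals near the floor limit what could be seen in PSMB8, PSMC6, PSMD4, PSMD9 and PSMG4.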
